A study of Homo sapiens with 2 samples.

Results

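The intermediate filament genes described here are 8 genes of the cytoskeleton and the nuclear lamina: the keratins KRT8, KRT18 and KRT81, vimentin (VIM), nestin (NES), the neurofilament light chain NEFL, and the lamins LMNA and LMNB1. They were found by gene name among the 15603 genes of the deposited table. The levels in both libraries were known when they were chosen, so their folds are a description and carry no test. RNA was sequenced from 2 cultures of A172, an established human glioblastoma cell line. One library came from the parental cells, labelled as without temozolomide (TMZ, an alkylating drug used against this tumour). The other came from a resistant clone selected by the drug, cell line A172-r#6, labelled as with TMZ. The resistant group is 1 clone, and each group held 1 library, called parental cells and the clone below. Clone, selection and drug exposure therefore cannot be told apart, and no difference below has a replicate check.

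Intermediate filaments are rope-like polymers that give cells mechanical strength, and their make-up is characteristic of the cell type. Keratins assemble as obligate pairs of a type I and a type II chain, and KRT18 and KRT8 are the pair of simple epithelia, also found in some non-epithelial tumour cells. Vimentin is the filament of mesenchymal cells and of cultured glioma cells, nestin is a marker of neural stem and progenitor cells, and neurofilaments belong to neurons. Lamins form the meshwork under the inner nuclear membrane.

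The 3 keratins had higher levels and nestin a lower one in the resistant library. KRT8 was 4.26-fold and KRT81 10.8-fold higher there, NES was 6.64-fold lower, and VIM and LMNA differed by less than 1.3-fold. Levels are FPKM (fragments per kilobase, adjusted for depth), so that genes can be set side by side within a library. Ratios such as these are plain FPKM ratios. Log2 folds are of (resistant FPKM + 1) over (parental FPKM + 1), and a gene is called higher or lower when this fold is at least 2 in size. All 8 genes passed the filter of 1 FPKM in either library. Of the 8, 2 were called higher, where the share called higher among all 13937 tested genes was 4.59%. One, NES, was called lower, beside 3.82% of all tested genes. The other 5 were not called, so that 3 of 8 were called in either direction, beside 8.41% of all tested genes. Since the genes were chosen on this contrast, nothing is read from these shares.

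Before the values, sequence that limits the value of KRT81 is shown, and the sequence shared by the other genes follows in the next paragraph. KRT81 is a hair keratin, a type II chain of the hair shaft, and lies on chromosome 12 at 52285913 to 52291534 (GRCh38, minus strand). KRT86, a second hair keratin, lies on the plus strand, and its annotated gene (52249300 to 52309163) spans that of KRT81. In the GENCODE release 29 transcripts their coding sequences were identical at 94.2% of 1454 aligned bases. They shared 1 unbroken run of 605 bases, from coding base 61 to 665 of KRT81, and a fragment inside it cannot be given to either gene from its letters alone. The first 90 bases of that run lie at chr12:52291316-52291405 (minus strand) for KRT81 and at chr12:52301977-52302066 (plus strand) for KRT86, and they hold no difference.
KRT81: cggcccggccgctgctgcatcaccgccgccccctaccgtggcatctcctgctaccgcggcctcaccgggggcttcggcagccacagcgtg
KRT86: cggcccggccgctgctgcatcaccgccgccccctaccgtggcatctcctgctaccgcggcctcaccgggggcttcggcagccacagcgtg
The 90 bases that differ most, coding bases 1237 to 1326 of both genes, differ at 19 positions, shown in capitals. They span an intron, between chr12:52286447-52287112 (minus strand) for KRT81 and chr12:52306270-52308450 (plus strand) for KRT86, and here fragments can tell the genes apart.
KRT81: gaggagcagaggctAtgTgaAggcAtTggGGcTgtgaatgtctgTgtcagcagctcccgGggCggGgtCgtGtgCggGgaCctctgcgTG
KRT86: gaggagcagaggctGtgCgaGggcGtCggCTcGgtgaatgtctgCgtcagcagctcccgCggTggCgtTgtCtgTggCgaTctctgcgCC

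Shared sequence differed widely between the 8 genes. Of all 50-base stretches of the KRT81 transcript, 44.6% also occurred in transcripts of another gene, 38.4% in KRT86. For KRT8 the share was 41.3% and for KRT18 31.8%, spread over 36 and 43 genes, whose leading names were processed copies such as KRT8P3 and KRT18P11. With 100-base stretches the share was 30.3% for KRT81, 7.56% for KRT8 and 0% for KRT18. For VIM, NES, NEFL, LMNA and LMNB1 it was 0% at both lengths on the sense strand, the only strand counted. No source used here states the fragment length or how fragments with several matches were treated.

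**Figure D1:**
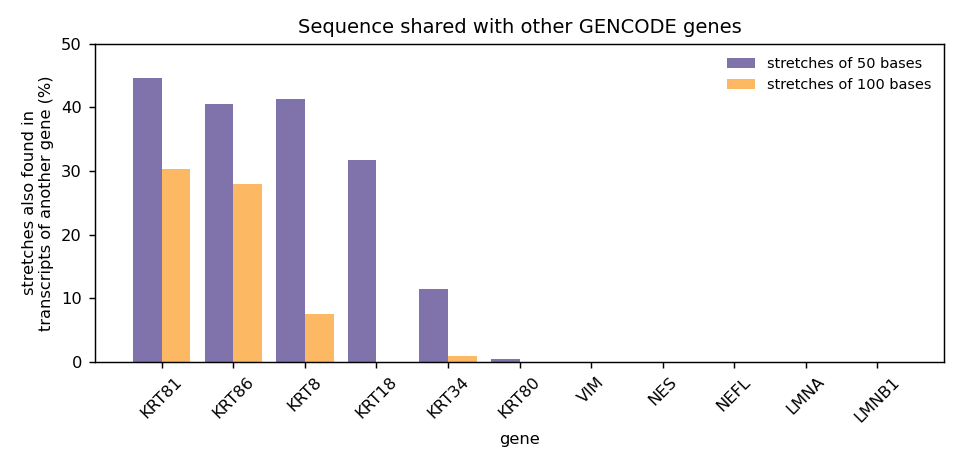
Percent of all 50-base (purple) and 100-base (yellow) stretches of a gene's longest coding transcript that also occur in GENCODE transcripts of another gene. KRT81 and KRT86 stand at 44.6% and 40.5% for 50 bases, while VIM, NES, NEFL, LMNA and LMNB1 are at 0%.

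KRT8 (ENSG00000170421, chromosome 12, 52897187 to 52949954, minus strand) stood at 213 FPKM in parental cells and 905 in the clone, a log2 fold of 2.08. That moved it from rank 130 to rank 15 among all listed genes, and from the fourth to the first of the 8. KRT18 (ENSG00000111057, chromosome 12, 52948871 to 52952901, plus strand) stood at 392 and 702 FPKM, with a log2 fold of 0.84, and was not called. The chains of the pair thus differed unequally between the libraries: the KRT8 level was 0.543 times that of KRT18 in parental cells and 1.29 times in the clone. The annotated genes overlap at their ends on opposite strands, with 525 exonic bases in common, and no source used here states whether the authors counted by strand. Adding the 5 listed KRT8 pseudogenes to KRT8 gave 221 and 914 FPKM, and adding 4 listed KRT18 pseudogenes to KRT18 gave 397 and 705. The copies that share most sequence, KRT8P3 and KRT18P11, were not listed, so these sums leave them out and do not settle where shared fragments went.

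KRT81 (ENSG00000205426) had the highest fold of the 8, at 17.3 FPKM in parental cells and 186 in the clone (log2 fold 3.35). It went from the lowest of the 8 in the parental library to the fifth in the resistant one, and from the 71.8th to the 98.6th percentile of tested genes. KRT86, which shares the sequence shown above, was listed at 0.518 and 1.30 FPKM, and the pseudogene KRT87P at 0.141 and 0.740. Summed over KRT81, KRT86 and KRT87P, the level was 18.0 and 188 FPKM, a 10.5-fold ratio. How the authors' quantification divided shared fragments between these genes was not tested.

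Nestin, a large filament protein that copolymerises with vimentin, differed most in the other direction. NES (ENSG00000132688, chromosome 1, 156668763 to 156677397, minus strand) stood at 33.7 FPKM in parental cells and 5.08 in the clone, a log2 fold of -2.51. Its place among tested genes went from the 87.2nd to the 35.5th percentile. VIM (ENSG00000026025, chromosome 10, 17228259 to 17237593, plus strand), its partner in the filament, was the most abundant of the 8 in the parental library, at 632 FPKM, and stood at 804 in the resistant one (log2 fold 0.35). The VIM level was thus 18.7 times that of NES in parental cells and 158 times in the clone. VIM shares 641 exonic bases with VIM-AS1 on the opposite strand, which was listed at 3.40 and 1.57 FPKM. In bulk RNA, fewer cells holding a transcript and less of it in every cell cannot be told apart.

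NEFL (ENSG00000277586, chromosome 8, 24950955 to 24957110, minus strand), the core subunit of neurofilaments, stood at 61.9 FPKM in parental cells and 31.5 in the clone. Its log2 fold of -0.96 lay just under the threshold, and it was called lower when the libraries were scaled to the same upper quartile (-1.03), median (-1.02) or sum (-1.06). NEFL shares 490 exonic bases with CTD-2168K21.2 on the opposite strand, which was listed at 0.652 and 0.0976 FPKM. The level of NEFL was 1.84 times that of NES in parental cells and 6.19 times in the clone.

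No lamin was called. LMNA (ENSG00000160789, chromosome 1, 156082573 to 156140089, plus strand), which encodes lamins A and C, stood at 232 FPKM in parental cells and 261 in the clone (log2 fold 0.17). LMNB1 (ENSG00000113368, chromosome 5, 126776623 to 126837020, plus strand), a B-type lamin that stays attached to the membrane by its farnesyl group, stood at 32.1 and 22.1 FPKM (-0.52). LMNB2, the other gene of that type, stood at 38.02 and 44.3 FPKM. The LMNA level was 7.22 times that of LMNB1 in parental cells and 11.8 times in the clone.

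The order of the 8 levels in the parental library was VIM, KRT18, LMNA, KRT8, NEFL, NES, LMNB1 and KRT81. In the resistant library it was KRT8, VIM, KRT18, LMNA, KRT81, NEFL, LMNB1 and NES. With 1 library per group there is no spread to say which neighbours in these orders differ. The authors' deposited table gave this comparison a q-value of 5.69e-08 for KRT8, 0.00244 for KRT18, 1.12e-13 for KRT81 and 2.07e-08 for NES. It was 0.0667 for NEFL, 0.322 for LMNB1, 0.693 for VIM and 0.800 for LMNA in the authors' deposited table. Such values compare the 2 libraries and not the conditions.

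**Figure D2:**
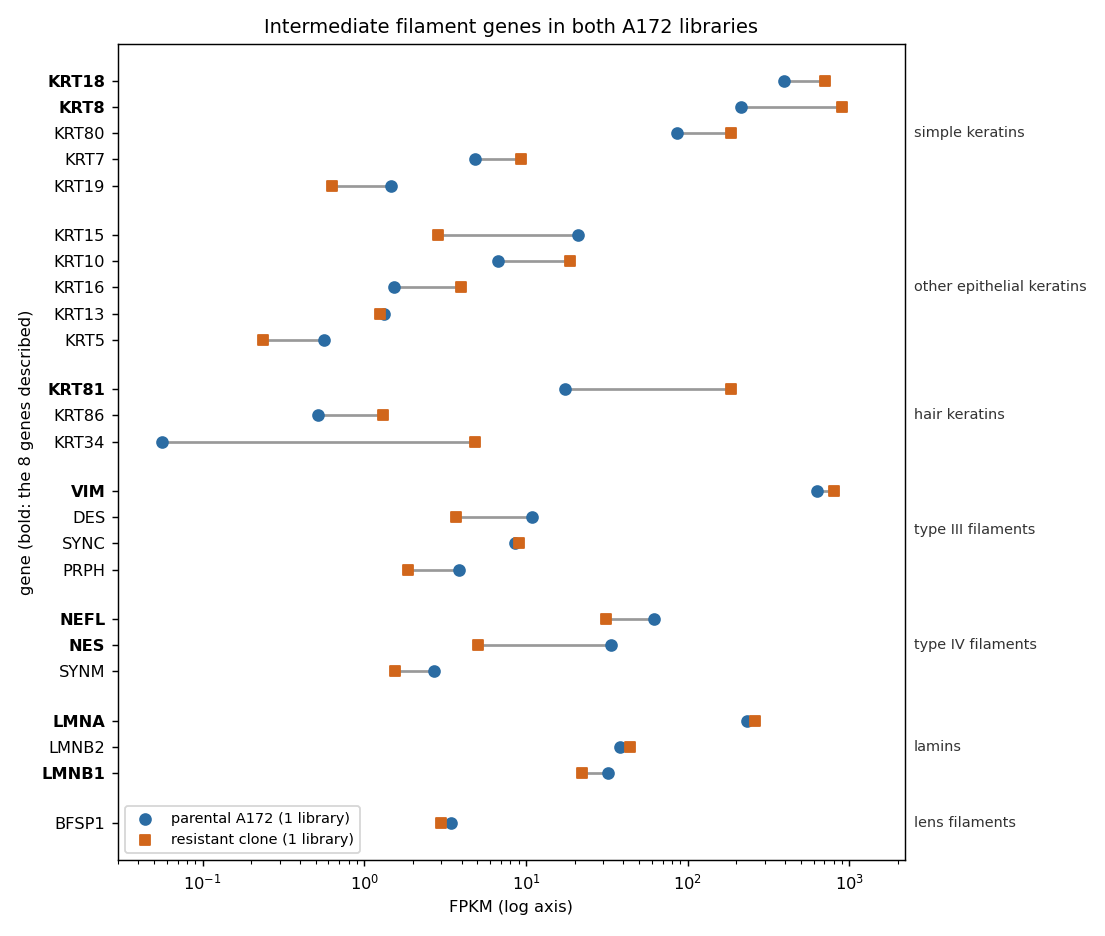
FPKM on a log axis of each listed intermediate filament gene in the parental (blue circle) and the resistant (orange square) library, 1 library each, grouped by class, with the 8 genes in bold. KRT8 moves from 213 to 905 and KRT81 from 17.3 to 186, NES moves from 33.7 to 5.08, and the points of VIM and LMNA nearly touch.

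The whole family was looked up to place the 8, which are included in the counts here. Of 71 intermediate filament genes in the lists, 24 were listed and 23 tested. Of these 5 were called higher, 3 lower and 15 neither, beside 4.59% higher and 3.82% lower over all tested genes. The 8 chosen genes supplied 2 of the higher and 1 of the lower calls, so these counts partly restate the choice. The median log2 fold of the 23 was 0.17, beside 0.04 over all tested genes. Among 12 tested keratins, KRT8, KRT18 and KRT81 included, 5 were called higher and 1 lower, with a median of 0.91. The 3 tested genes of type IV, NES and NEFL among them, all lay on the lower side, with a median of -0.96.

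Besides KRT8 and KRT81, the keratins called higher were KRT80, KRT10 and KRT34. KRT80, a type II keratin of many epithelia, stood at 86.2 FPKM in parental cells and 185 in the clone. KRT10, a type I keratin of the upper epidermis, stood at 6.70 and 18.6 FPKM. KRT34, a type I hair keratin, stood at 0.0565 and 4.82 FPKM, and 11.4% of its 50-base stretches recur in other genes, mainly the hair keratins KRT33B and KRT33A. A type I hair keratin of this kind is the class of partner that KRT81 pairs with in hair, and its level in the resistant library was far below the 186 FPKM of KRT81.

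Keratins did not all lie on the higher side. KRT15, a type I keratin of basal cells in stratified epithelia, was called lower, at 21.0 FPKM in parental cells and 2.84 in the clone. KRT19, the smallest keratin and one of simple epithelia, stood at 1.47 and 0.627 FPKM, KRT13 at 1.32 and 1.24, and KRT5 at 0.566 and 0.236, under the filter. KRT7 (4.81 and 9.34 FPKM) and KRT16 (1.52 and 3.99) lay on the higher side but under the threshold, at log2 folds of 0.83 and 0.99. The plain ratio of KRT16 was 2.63, and the pseudocount of 1 kept its fold under 2. KRT16 shares 22.0% of its 50-base stretches with other genes.

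Of type III genes, desmin (DES), the filament of muscle, was called lower, at 11.0 FPKM in parental cells and 3.68 in the clone. Peripherin (PRPH), of peripheral neurons, stood at 3.84 and 1.86 FPKM, and syncoilin (SYNC) at 8.54 and 9.05, with 48.9% of its exonic bases overlapping RBBP4 on the opposite strand. Synemin (SYNM), of type IV, stood at 2.70 and 1.55 FPKM and the lens filament gene BFSP1 at 3.43 and 2.97. GFAP, the filament of mature astrocytes, was not listed in the table used here, whose genes reach at least 0.544 FPKM in 1 of the libraries. Why genes are missing from it is not known, so an unlisted gene is not read as a low level.

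As shares of the summed FPKM of the 24 listed genes, keratins made up 41.3% in parental cells and 63.0% in the clone. Without the hair keratins these shares were 40.7% and 60.6%. Both sets of shares hold KRT8 and KRT18, chosen on this contrast, so the keratin shares largely restate the choice. Type III genes, nearly all VIM, made up 36.3% and 25.5%, lamins 16.7% and 10.2%, and type IV genes 5.45% and 1.19%. In summed FPKM, type III stood at 655 and 819, lamins at 302 and 328, and type IV at 98.4 and 38.1. The lower shares of type III and lamins in the clone were thus shares of a larger total. The sum over all 24 genes was 1805 FPKM in parental cells and 3210 in the clone, or 0.602% and 0.991% of all listed FPKM. KRT8 alone held 11.8% of the sum in parental cells and 28.2% in the clone, and KRT18 held 21.7% and 21.9%.

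**Figure D3:**
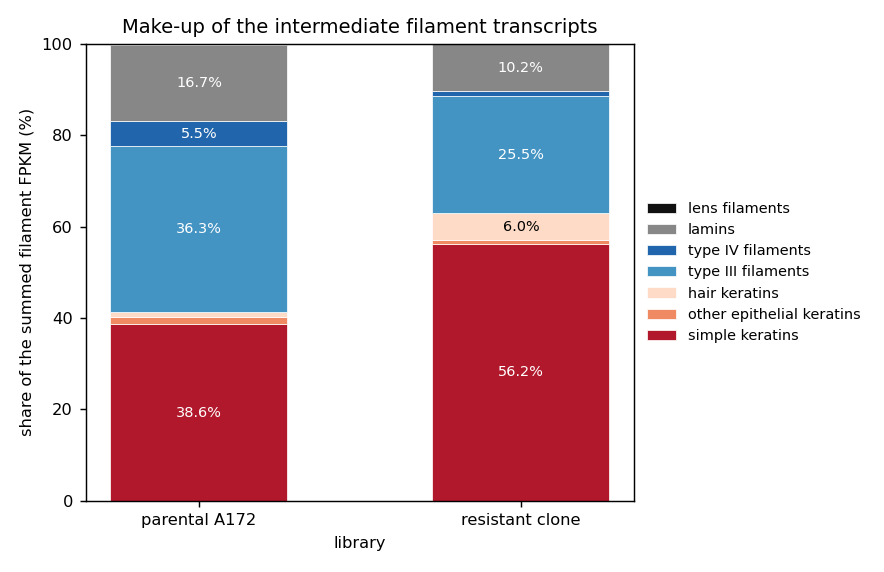
Stacked bars of the percent of the summed FPKM of 24 intermediate filament genes held by each class, for the 1 parental and the 1 resistant library. Simple keratins (dark red) take 38.6% of the parental and 56.2% of the resistant bar, and type III genes (light blue) take 36.3% and 25.5%. The simple keratins include KRT8 and KRT18, which were chosen on this contrast.

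KRT8 and KRT81 lie in the type II keratin cluster of chromosome 12. A window from 1000 kb before KRT8 to 300 kb after it was chosen after its values were seen. In it 3 of 6 tested keratins were called higher and none lower, with log2 folds from 0.60 to 3.35. The 6 include KRT8, KRT18 and KRT81, which were chosen on this contrast. Of the tested keratins there outside the 8, KRT80 was called, while KRT7 and KRT86 were not. None of the 11 tested genes in the window that are not keratins was called, with log2 folds between -0.98 and 0.76. Over all tested genes 4.59% were called higher and 3.82% lower. Over all 740 tested genes of chromosome 12 the median log2 fold was 0.05. Next to KRT8 and KRT18, the listed gene KRT5 lies before them, and EIF4B, a translation initiation factor at 51.6 FPKM in parental cells and 66.3 in the clone, lies after them. TNS2, a focal adhesion protein, follows at 17.7 and 8.52 FPKM, behind the noncoding RP11-983P16.4 at 0.841 and 0.488. On chromosome 17, which holds the type I cluster, 2 of 6 tested keratins, KRT10 and KRT34, were called higher and 1, KRT15, lower. The KRT34 call rests on 0.0565 FPKM in parental cells and 4.82 in the clone, and it is lost with a filter of 5 FPKM.

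**Figure D4:**
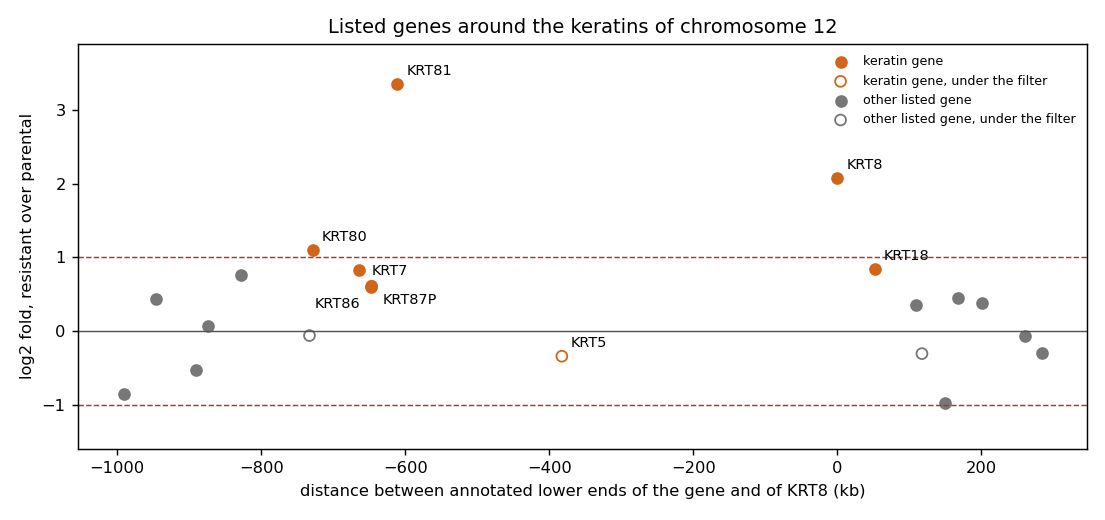
Log2 fold of each listed gene around the chromosome 12 keratins against its distance from KRT8 in kb, with keratins in orange, other genes in grey, genes under the filter as open circles and dashed lines at the 2-fold threshold. KRT80, KRT81 and KRT8 lie above the upper line, at 1.10, 3.35 and 2.08, and no gene in grey crosses either line.

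Filaments act through linkers and junctions, and these were read from lists of partners. Over 52 tested partner genes 4 were called higher and none lower (median log2 fold 0.13), and with upper quartile scaling 1 was called higher. Over all tested genes 4.59% were called higher and 3.82% lower, with a median log2 fold of 0.04. Among 7 tested desmosome genes, whose products anchor keratin at cell contacts, 3 were called higher and none lower (median 0.80), and 1 was with upper quartile scaling. Desmoplakin (DSP), which ties keratin to the desmosome, stood at 10.5 FPKM in parental cells and 26.7 in the clone. The plakophilins PKP3 and PKP4 stood at 5.49 and 12.6 FPKM and at 11.9 and 24.9. Plakoglobin (JUP) stood at 40.8 and 34.8 FPKM and PERP at 26.1 and 39.0. Of the 4 tested plakins, giant linkers between filaments and other structures, DSP was the 1 called, while MACF1 stood at 204 and 218 FPKM and DST at 136 and 125. The plakins PLEC, EVPL and EPPK1 were not listed.

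Genes around the nuclear lamina showed no call, as the lamins themselves did not. Over all tested genes 4.59% were called higher and 3.82% lower, so nothing is read from this lack of calls. Among 6 tested genes of the LINC complex, which couples the lamina to the cytoskeleton, log2 folds ran from -0.57 to 0.59, with SUN1 at 43.6 FPKM in parental cells and 43.9 in the clone and the nesprin SYNE1 at 34.5 and 52.3. Among 14 lamin partners and processing genes they ran from -0.53 to 0.43. ZMPSTE24, the protease that matures lamin A, stood at 39.1 and 53.1 FPKM, and BANF1, which links chromatin to the lamina, at 64.7 and 62.9. Of 22 kinases, chaperones and other filament regulators 1 was called higher, the kinase PRKCD (2.99 and 7.26 FPKM), beside 4.59% of all tested genes. None of the 22 was called with upper quartile scaling. The chaperone HSPB1 stood at 313 and 363 FPKM and the 14-3-3 protein YWHAZ at 549 and 434.

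Markers of cell types were read beside the filaments, since several of the 8 genes serve as markers. Over all tested genes, 4.59% were called higher and 3.82% lower, with a median log2 fold of 0.04. The marker counts below are to be read beside these values. Of 16 epithelial markers that are no keratins 8 were listed, and their summed level was 48.1 FPKM in parental cells and 43.4 in the clone. Of 6 tested, CLDN1 (0.968 and 6.26 FPKM) and ESRP1 (0.515 and 2.25) were called higher and ELF3 (15.6 and 6.06) lower. MUC1 stood at 14.4 and 13.2 FPKM and CLDN4 at 8.40 and 7.60. The summed level follows mainly its most abundant genes, ELF3 and MUC1 among them. EPCAM was at 0.797 and 0.669 FPKM, and CDH1 was not listed.

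Of 11 neural stem and progenitor markers 7 were tested. NES, chosen on this contrast, and SOX2 (2.23 FPKM in parental cells and 0.253 in the clone) were called lower, and none higher. OLIG2 stood at 1.43 and 3.42 FPKM, a plain ratio of 2.39, and the pseudocount of 1 kept its fold under 2. MSI2 stood at 43.9 and 47.2 FPKM and NOTCH1 at 9.31 and 16.4, and the median log2 fold was 0.03. Of 10 astrocyte and glioma markers 6 were not listed, among them the defining GFAP, S100B and AQP4. The other 4 were tested and none called, all with a negative log2 fold (median -0.86). Among them CLU stood at 101 and 53.3 FPKM and GJA1 at 39.3 and 21.8. Of 5 tested neuronal markers, NEFL included, none was called (median -0.58), with TUBB3 at 91.3 and 60.6 FPKM.

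Of 11 tested mesenchymal markers, VIM included, 5 were called higher and 1 lower (median log2 fold 0.94), with 3 higher under upper quartile scaling. The shares over all tested genes were 4.59% higher and 3.82% lower (median 0.04). Of those higher, the transcription factor SNAI2 stood at 4.96 FPKM in parental cells and 26.3 in the clone, TWIST2 at 3.22 and 11.5, ZEB2 at 8.58 and 18.7, and fibronectin FN1 at 4.45 and 10.3. ZEB1 was lower, at 16.99 and 7.34 FPKM, and CD44 stood at 83.1 and 161. The summed level of 5 listed myeloid and endothelial markers was 13.6 FPKM in parental cells and 2.65 in the clone. Of these the endothelial receptor TEK was called lower (9.53 and 1.56), PTPRC stood at 1.83 and 0.485, and CD68 at 0.690 and 0.434. The part of other cell types or states in the levels of the 8 genes was not tested.

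**Figure D5:**
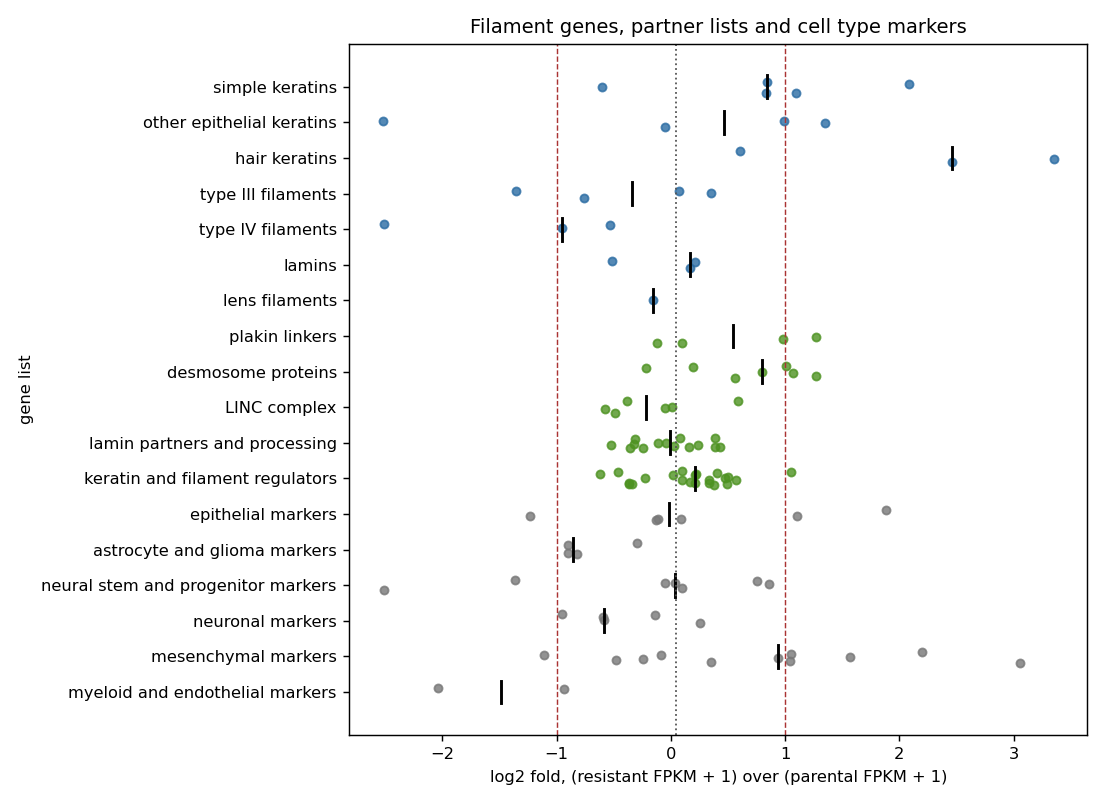
Log2 fold of every tested gene in each list (points), with the list's median (black bar), the median of all tested genes (dotted line, 0.04) and the 2-fold threshold (dashed lines), with filament lists in blue, partner lists in green and marker lists in grey. Points of the LINC complex and lamin partner lists stay between the dashed lines, while hair keratins reach 3.35 and type IV filaments -2.51.

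The genes most like 3 of the members were ranked by the distance of log2(FPKM + 1) over the 2 libraries, which says nothing of shared control. Nearest to KRT8 was the lysosomal protease CTSD (267 FPKM in parental cells and 657 in the clone), at a distance of 0.57. Nearest to KRT81 were the ankyrin repeat gene ANKRD1 (27.9 and 182 FPKM) and the stress-induced pseudokinase TRIB3 (23.9 and 106), at 0.66 and 0.92. Nearest to NES were the fatty acid binding protein FABP3 (34.7 and 5.05 FPKM), at 0.04, and the calsyntenin CLSTN2 (27.6 and 5.61), at 0.31.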

How the data were processed

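RNA of 1 parental and 1 resistant culture was sequenced with a stranded mRNA kit, per the labels. The authors deposited 1 table with the FPKM of each library, per the file headers. It also holds the log2 ratio, p-value and q-value of the authors' comparison, per the file headers. The aligner, the counting tool, the annotation, the build and the statistical test were not given in the sources used here. Depth is unknown, so no counting interval is given. The table appears filtered, and 293 genes had an exact 0 in 1 library, none of them a filament gene.

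Log2 folds used a pseudocount of 1, which understates changes of low genes. Genes with 1 FPKM in either library were tested against a 2-fold threshold, without p-values. The calling rule was also run on simulated data with an assumed noise. With 1 library per group the true noise is unknown, so that run says nothing of the calls made here. GENCODE release 29 (GRCh38) held 99.5% of the identifiers, and 96.7% of the deposited loci contained the GENCODE gene. Coding sequences were aligned with Biopython 1.88 (match 2, mismatch -1, gap opening -5, extension -1) and shared stretches of 50 and 100 bases were counted on the sense strand. Python was 3.11.15.

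The members and lists were chosen with earlier results of these data known. Named were the 8 genes, other listed filament genes, called genes of each further list with 2 of its most abundant, flanking genes and the 2 nearest patterns. GFAP, S100B, AQP4, EPCAM, CDH1, KRT5, OLIG2, PLEC, EVPL, EPPK1 and genes named for shared sequence or overlap were added after values were seen. Some genes that this rule names are not reported here. Alternatives changed the pseudocount, filter, threshold and scaling.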

Additional observations from a re-analysis of the deposited data

How the results depend on the processing

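Of 43 alternative log2 folds of the 8 genes, 40 kept their direction and their side of the 2-fold threshold. The other 3 were those of NEFL under upper quartile (-1.03), median (-1.02) and sum scaling (-1.06). A changed pseudocount moves abundant genes little, and a scaling shifts them nearly alike, so this agreement was largely fixed in advance. Sums with near copies were chosen after seeing the data and hold listed copies only. The count of genes depended on the settings by their construction. With a pseudocount of 0.1, 1076 genes were higher and 1029 lower, and 5 filament genes were lower. At 1.5-fold, 2020 genes were higher and 1674 lower, among them 9 and 6 filament genes. At 4-fold, 61 genes were higher and 59 lower, with 3 filament genes higher. A filter of 5 FPKM left 282 genes lower. Of 252 alternative counts over lists and all genes, 121 were 0 under both settings and say nothing of stability. Of the other 131, 78 stayed within 1.5 times of the count reported and 53 did not. No paired analysis was possible because each group held 1 library. No replicate could be left out for the same reason, and depth is unknown for these FPKM.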
